A study of Mus musculus with 16 samples.

Results

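Transcripts of 4 G protein-coupled receptors, Gpr183, Gpr165, Ednrb and Lgr4, were followed in hippocampal microglia, the macrophages that live in brain tissue, of mice that were 20 or 3 months old. The 4 were picked from a table of 24015 gene rows because all were lower at 20 months, so their levels by age are given as a description and are not tested. All 4 were among the 11579 genes with enough counts to be tested. The older group held 6 samples from mice aged 20 months and the younger group 6 samples from mice aged 3 months, all untreated as far as the labels say. The strain is labelled C57BL/6, except for aged sample 5, labelled C57BL/7, and the libraries of aged sample 6, labelled C57BL/8 and C57BL/9. Whether that is another strain or an entry error is not settled by the labels. After perfusion the hippocampus was dissected, myelin was depleted magnetically, and cells that were live, CD11b+ and CD45lo were sorted. No label tells if 1 animal or several went into a sample, so SDs and p-values stand for the variation among the samples as sequenced, which may be partly technical.

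G protein-coupled receptors cross the membrane several times and pass an outside signal to G proteins, arrestins or other partners inside the cell. Gpr183, also called Ebi2, is a receptor for hydroxylated cholesterol derivatives and is best known for steering migrating lymphocytes and dendritic cells. Ednrb is the B-type endothelin receptor, known in the brain mainly from astrocytes and blood vessels. Lgr4 binds R-spondins through a large leucine-rich ectodomain and thereby strengthens Wnt signalling, because the ubiquitin ligases Znrf3 and Rnf43 that remove Frizzled receptors are then taken off the cell surface. Gpr165 is an orphan receptor with no agreed ligand.

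The genes lie at unlinked places or far apart. In the mm10 annotation (GENCODE release M21), Gpr183 spans 121952551 to 121965195 on chromosome 14, minus strand, with 3 exon blocks. It lies within the span of Ubac2, a gene on the opposite strand, but shares 0 exon bases with it. Ubac2 stood at 2433 ± 150 normalized counts at 20 months and 2500 ± 99.3 at 3 months (SD, n = 6 each; limma adjusted p = 0.908), which matters because the libraries do not mark the strand. Ednrb lies on the same chromosome at 103814625 to 103844402, minus strand, in 8 exon blocks. Lgr4 is on chromosome 2 at 109917647 to 110014257, plus strand, in 20 exon blocks. Gpr165 is on chromosome X at 96713441 to 96719388, plus strand, in 4 exon blocks. All 4 are protein-coding, and Gpr165, Ednrb and Lgr4 overlap no other annotated gene. Since Gpr165 is X-linked, transcripts that mark sex were looked at. Ddx3y, a Y-linked gene, had at least 1341 normalized counts in every sample, while Xist, the RNA of the inactive X, had at most 9.51.

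The windows around the RefSeq start of each gene (GRCm38.p6, 250 bases before and 50 after) are shown because the receptors were grouped by a shared direction, and these windows let their start regions be compared letter by letter. Capitals mark the 1 match found among 7 short motifs searched on both strands.
Gpr183, chromosome 14, 121965144 to 121965443, minus strand: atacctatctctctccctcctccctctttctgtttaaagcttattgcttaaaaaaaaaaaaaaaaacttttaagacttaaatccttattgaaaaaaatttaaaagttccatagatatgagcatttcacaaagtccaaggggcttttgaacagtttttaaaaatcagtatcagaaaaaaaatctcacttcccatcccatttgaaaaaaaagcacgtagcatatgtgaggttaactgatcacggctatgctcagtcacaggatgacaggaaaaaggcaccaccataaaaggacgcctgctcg
Gpr165, chromosome X, 96713218 to 96713517, plus strand: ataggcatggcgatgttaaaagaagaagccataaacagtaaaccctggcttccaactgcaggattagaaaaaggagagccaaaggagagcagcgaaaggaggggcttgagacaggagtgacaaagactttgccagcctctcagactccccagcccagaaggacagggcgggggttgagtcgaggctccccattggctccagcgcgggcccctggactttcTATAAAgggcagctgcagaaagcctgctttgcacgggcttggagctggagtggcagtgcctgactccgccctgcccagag
Ednrb, chromosome 14, 103843652 to 103843951, minus strand: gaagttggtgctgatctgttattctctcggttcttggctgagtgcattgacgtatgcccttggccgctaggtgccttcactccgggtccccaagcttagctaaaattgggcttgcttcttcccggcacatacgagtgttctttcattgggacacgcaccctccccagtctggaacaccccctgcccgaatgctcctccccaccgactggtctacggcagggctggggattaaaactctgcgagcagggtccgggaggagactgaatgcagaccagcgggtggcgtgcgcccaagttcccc
Lgr4, chromosome 2, 109917397 to 109917696, plus strand: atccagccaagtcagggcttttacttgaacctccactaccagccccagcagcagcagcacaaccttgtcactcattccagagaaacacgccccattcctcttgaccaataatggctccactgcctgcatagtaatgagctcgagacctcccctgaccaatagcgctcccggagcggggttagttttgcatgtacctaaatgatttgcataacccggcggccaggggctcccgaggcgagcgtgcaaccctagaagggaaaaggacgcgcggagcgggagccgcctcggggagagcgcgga
The window of Ednrb belongs to a start that lies inside the annotated span of the gene. Gpr183 had the least GC, at 35.3%, with 4 CpG dinucleotides, against a median of 52.7% and 7 CpG over 32851 windows. Gpr165 had 57.0% GC and 8 CpG, Ednrb 58.7% and 15 CpG, and Lgr4 58.3% and 18 CpG. In Gpr165 the letters TATAAA begin 30 bases before the start, and 13.6% of all windows hold them. The other motifs matched none of the 4 windows. They were AGGAAGT for PU.1 (in 9.35% of all windows), TGACGTCA for CRE (1.79%), TGANTCA for AP-1 (7.81%), CTTTGA for TCF/LEF (16.0%), the IRF motif (3.44%) and CACGTG for the E-box (7.15%). No motif searched was thus shared by the 4 windows.

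The measured values are normalized counts per gene from the authors. In samples with 1 library they came out as whole reads scaled by 1 factor per sample. In samples with 2 libraries only low values were checked for such steps. Depth was 24.2 to 58.2 M reads in the 20-month samples and 11.4 to 56.7 M in the 3-month samples. In the 4 samples with 2 technical libraries, young 2, young 4, aged 3 and aged 6, it is an estimate. Mean depth was 36.4 M reads at 20 months and 39.0 M at 3 months, a difference within the spread between samples (n = 6 for each age; exact permutation p = 0.78, in both directions). Defining microglia genes were abundant, and their 12 markers summed to 67476 to 75032 CPM (the list's share of a sample's normalized total, scaled as for counts per M) at 20 months and 76598 to 81580 CPM at 3 months.

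Gpr183 was the most abundant of the 4. At 20 months its lowest value was 8148 normalized counts, its median 9221 and its highest 10151, and at 3 months these were 9974, 11212 and 11843. Of the 6 aged samples, 5 lay below every young sample, and aged 6 lay above young 3. The means were 9107 ± 688 normalized counts at 20 months and 11049 ± 715 at 3 months (SD, n = 6 each), a ratio of 82.4%. The log2 difference, 20 minus 3 months, was -0.28 (SE 0.07).

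Gpr165 had a median of 2928 normalized counts at 20 months, between 2277 and 4008, and a median of 5194 at 3 months, between 3509 and 7271. The ages overlapped through aged 2, the highest aged sample, and young 4, the lowest young one. Means were 2971 ± 667 and 5249 ± 1402 normalized counts (SD, n = 6 each), and the log2 difference was -0.81 (SE 0.17). The spread was wide within both ages, with a coefficient of variation of 22.4% at 20 months and 26.7% at 3 months, against 7.56% and 6.47% for Gpr183.

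Ednrb had a median of 28.5 normalized counts at 20 months, between 8.04 in aged 2 and 58.0 in aged 3, and a median of 78.4 at 3 months, between 66.8 and 93.7. The ages did not overlap. Means were 33.0 ± 19.4 and 79.1 ± 8.90 normalized counts (SD, n = 6 each), a ratio of 41.7%. The log2 difference was -1.47 (SE 0.36), a larger fall (fold 0.36) than that of the means. The aged samples were the uneven ones, with a coefficient of variation of 58.7% at 20 months and 11.3% at 3 months. Aged 1 and aged 3 stood nearer to the young samples than to aged 2. Few reads lie behind these values. In the samples with 1 library whole reads could be recovered, 8 in aged 2, 23 in aged 4, 31 in aged 5 and 62 in aged 1, and 32 to 120 in young samples. The exact Poisson interval (95%, counting error only) of the 8 reads in aged 2 runs from 3.47 to 15.9 normalized counts, below the 16.0 to 37.9 of aged 4 and the 41.1 to 68.7 of aged 1. That of aged 5, from 21.6 to 45.1, overlaps those of aged 4 and aged 1. Reads without molecular identifiers are not independent molecules, so such intervals cover counting error only.

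Lgr4 had a median of 42.3 normalized counts at 20 months, between 27.5 in aged 6 and 69.2 in aged 1, and a median of 78.0 at 3 months, between 71.2 in young 1 and 129 in young 4. The ages did not overlap, but aged 1 came within 2.03 normalized counts of young 1. Young 1 is the shallowest sample, and its Lgr4 value rests on 29 reads, with an interval of 47.7 to 102 normalized counts that covers the 69.2 of aged 1. Means were 43.9 ± 15.1 and 87.0 ± 22.2 normalized counts (SD, n = 6 each), a ratio of 50.5%, with an SE of 0.24 on the log2 difference. All aged samples lay below all young samples for Ednrb and Lgr4, 2 of the 4 receptors, as they did for 0.717% of tested genes, where 1.87% did not overlap in either direction and 49.5% had a log2 difference below 0. Nothing is read from these counts, because the same contrast chose the receptors.

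**Figure D1:**
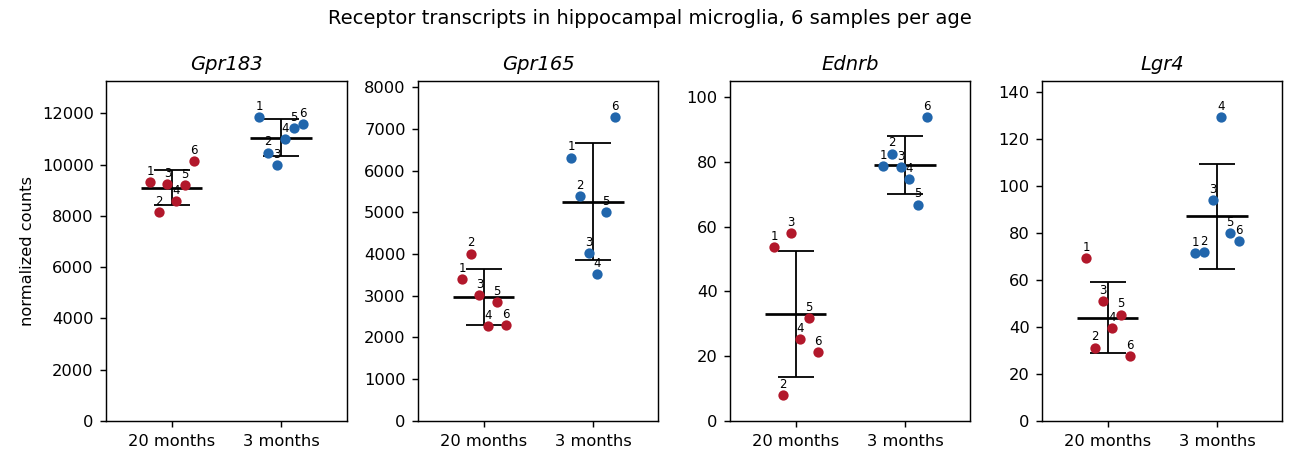
Normalized counts (vertical axis, from 0) of each receptor in the 6 samples at 20 months (red) and the 6 at 3 months (blue), with the sample number above each point; lines and bars are the mean ± SD. Ednrb and Lgr4 do not overlap between the ages, Gpr183 and Gpr165 do, and Ednrb ranges from 8.04 to 58.0 among the aged samples.

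Per kilobase of annotated exon, the order of levels was the same at both ages down to the low pair. Gpr183 had 3155 normalized counts per kilobase at 20 months and 3827 at 3 months, and Gpr165 had 654 and 1155. Ednrb had 7.73 and 18.5, and Lgr4 had 7.46 and 14.8. Whether Ednrb and Lgr4 differ from each other was not tested at either age. Among 82 tested receptors with an annotated length, Gpr183 ranked 10 at both ages, Gpr165 ranked 19 at 20 months and 16 at 3 months, Ednrb 71 and 54, and Lgr4 72 and 58.

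Leaving out any 1 sample, or changing the scale, filter or tool, left all 4 receptors lower at 20 months, a direction fixed by how they were chosen. The log2 difference then ran from -0.35 to -0.25 for Gpr183, from -0.91 to -0.70 for Gpr165, from -1.68 to -1.14 for Ednrb and from -1.15 to -0.80 for Lgr4. These ranges cover 22 alternatives each, among them a fit without aged samples 5 and 6, whose strain label differs.

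Whether the receptors varied together was asked within each age, where the contrast that chose them plays no part. On the log2 scale, of 12 relations, 6 pairs of receptors at 2 ages, none passed after adjustment. The most positive was that of Ednrb and Lgr4 among the aged samples (Pearson r = 0.81, exact permutation p = 0.044, adjusted 0.27; Spearman rho = 0.89, exact permutation p = 0.033, adjusted 0.35; n = 6), where aged 2 and aged 6 were low and aged 1 and aged 3 high for both. Without the 2 samples farthest from the median of Ednrb, aged 2 and aged 3, r was 0.98. On unlogged counts r was 0.85 with all samples. It was 0.73 without the 2 farthest on that scale, aged 1 and aged 3. The values of 0.98 and 0.73 thus rest on different samples and do not show an effect of scale. Among the young samples the same pair gave r = -0.30 (exact permutation p = 0.52, n = 6), and -0.87 without 2 samples. The most negative was that of Gpr165 and Lgr4 among the young samples (r = -0.85, exact permutation p = 0.025, adjusted 0.27; rho = -0.83, exact permutation p = 0.058, adjusted 0.35; n = 6). It was -0.94 without the 2 samples farthest from the median of Gpr165. Among the aged samples that pair gave r = 0.28 (exact permutation p = 0.58, n = 6), and 0.999 without 2 samples, aged 2 among them. Each such value rests on 4 samples. No difference between the ages in these relations was tested.

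**Figure D2:**
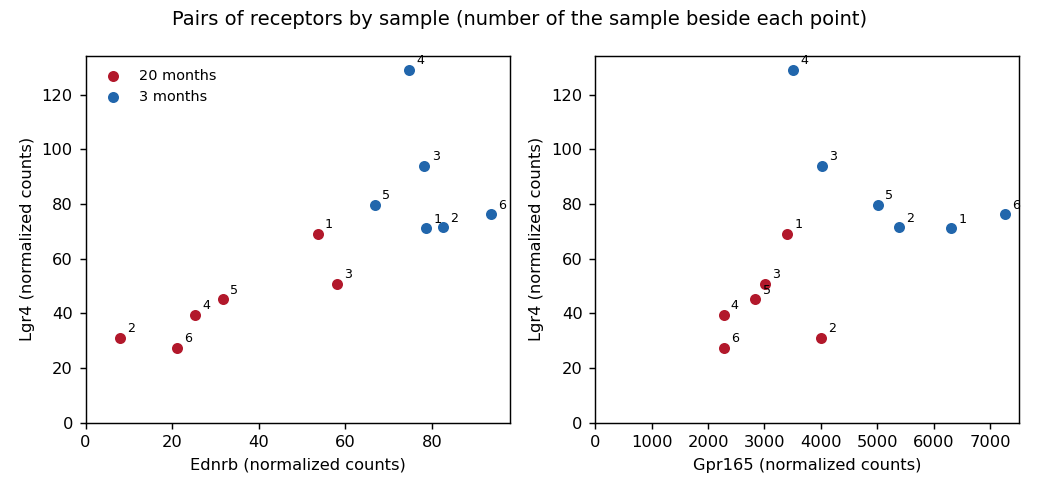
Lgr4 against Ednrb (left) and against Gpr165 (right) in normalized counts, 1 point per sample with its number, 20 months in red and 3 months in blue. On the log2 scale Ednrb and Lgr4 have r = 0.81 among the aged samples, and Gpr165 and Lgr4 have r = -0.85 among the young samples, neither past the threshold after adjustment.

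For each receptor the 3 genes with the most similar pattern were sought among all tested genes, over 12 samples after subtracting the mean of each age. For Gpr183 they were Usp3, a deubiquitinase (r = 0.90), Tmem8c, the myoblast fusion protein myomaker (0.89), and Dscr3 (0.88), where the 99th percentile over all genes was 0.68. Gpr165 was most like Uba6, a ubiquitin-activating enzyme (0.93), Zdhhc3, a palmitoyltransferase (0.92), and Nrp2, a receptor for semaphorins (0.92), with a 99th percentile of 0.78. Ednrb was most like Glb1, the lysosomal beta-galactosidase (0.88), Nt5dc2 (0.86) and Kif3c, a kinesin (0.86). Among the young samples alone r was 0.36 for Nt5dc2 and 0.60 for Kif3c, against 0.94 and 0.92 among the aged samples, where Ednrb was more uneven. Lgr4 was most like Mical3 (0.91), Ccdc91 (0.84) and Gm19897 (0.84). These values describe the samples, which share libraries and depth, and carry no test. Of the 12 genes, Tmem8c passed the age test and the other 11 did not. It rose to 1615 ± 269 normalized counts at 20 months, against 948 ± 67.8 at 3 months (SD, n = 6 each; limma adjusted p = 5.2e-04), opposite to Gpr183.

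The genes around each receptor were tested with limma over all 11579 genes, of which 1.73% passed at an adjusted p under 0.05 (1.27% rose and 0.458% fell). Of 7 listed enzymes that make or break down ligands of Gpr183, 4 were tested and none passed. The median log2 difference of the 4 was -0.03, against 0.002 over all tested genes. Ch25h, which makes the precursor hydroxysterol, had the largest difference of them. Its values ran from 5.19 in aged 1 to 89.5 in aged 2 at 20 months, and from 4.56 in young 3 to 24.6 in young 1 at 3 months. The ages overlapped, the means were 46.1 ± 37.2 and 9.83 ± 7.54 normalized counts (SD, n = 6 each), and the log2 difference of 1.77 did not pass (limma adjusted p = 0.23). Hsd3b7, which inactivates the ligand, stood at 997 ± 141 and 1124 ± 113 normalized counts (limma adjusted p = 0.59), and the 95% interval of its log2 difference ran from -0.39 to 0.03. Cyp27a1, a mitochondrial sterol hydroxylase, stood at 1458 ± 164 and 1426 ± 151 (limma adjusted p = 0.95; interval -0.16 to 0.23), and Cyp46a1, a cholesterol hydroxylase best known from neurons, at 71.0 ± 13.2 and 75.7 ± 14.4 (limma adjusted p = 0.93). Cyp7b1, which completes the main ligand, reached at most 1.16 normalized counts in any sample, and Cyp7a1 was at 0 in all 12.

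Of 9 listed genes of the endothelin system 4 were tested, none passed, and their median log2 difference was 0.06. Edn1, the ligand endothelin-1, ran from 12.1 in aged 4 to 71.8 in aged 1 at 20 months, and from 50.4 to 62.7 at 3 months. Its means were 44.8 ± 25.4 and 58.0 ± 4.53 normalized counts (SD, n = 6 each; limma adjusted p = 0.63), so its aged samples were uneven, as those of Ednrb were, but with aged 4 and not aged 2 lowest. Edn3 reached at most 4.39 normalized counts and the A-type receptor Ednra 4.89, seen in young 4 only, while Edn2 and the peptidases Mme and Kel were at 0 in every sample. The converting enzyme Ece1 stood at 722 ± 190 and 701 ± 70.1 (limma adjusted p = 0.99), with aged 6 lowest at 365. Ece2 stood at 232 ± 32.4 and 200 ± 29.0 (limma adjusted p = 0.69), and Furin, a protease of many precursors, at 4260 ± 309 and 3905 ± 410 (limma adjusted p = 0.62).

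Lgr4 was the one receptor of its R-spondin family seen in these cells, with Lgr5 at 0 in all 12 samples and Lgr6 at no more than 1.01 normalized counts. Of 11 listed ligands and partners 3 were tested and none passed, with a median log2 difference of 0.12. Rspo1, an R-spondin, stood at 83.9 ± 22.9 normalized counts at 20 months and 66.8 ± 26.5 at 3 months (SD, n = 6 each; limma adjusted p = 0.73), while Rspo2, Rspo3 and Rspo4 were at 0 throughout. Znrf3, the ubiquitin ligase, stood at 89.8 ± 18.4 and 99.3 ± 18.5 (limma adjusted p = 0.88; 95% interval of the log2 difference -0.55 to 0.25), and Rnf43 reached at most 7.04. Iqgap1, a scaffold that binds Lgr4, stood at 266 ± 60.0 and 243 ± 41.4 (limma adjusted p = 0.88).

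In the wider Wnt pathway 1 of 27 tested genes rose, 0 fell and 26 did not pass, with a median log2 difference of -0.004. The riser was Fzd8, a Wnt receptor. It rose to 424 ± 50.8 normalized counts at 20 months, against 270 ± 57.2 at 3 months (SD, n = 6 each; limma adjusted p = 0.020), and was higher in 6 of 6 aged samples than in any young sample. The call ended without aged 2, aged 3, aged 4 or young 5 (limma adjusted p up to 0.059). Fzd4, another Wnt receptor, averaged 748 ± 219 at 20 months and 1037 ± 123 at 3 months (limma adjusted p = 0.15). Leaving out aged 5 brought it past the threshold (0.028). Beta-catenin, Ctnnb1, stood at 7658 ± 998 and 8034 ± 1260 (limma adjusted p = 0.91). Of 16 listed Wnt target genes 4 were tested and none passed, with a median log2 difference of -0.21. Among them Ccnd1 stood at 496 ± 67.2 and 622 ± 214 and Myc at 1006 ± 204 and 956 ± 202 normalized counts (limma adjusted p = 0.72 and 0.93).

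Signalling genes shared by many such receptors were tested as well, and the examples named here, like those from the Wnt lists, were picked after their values were seen. None of 20 G protein subunits passed, with a median log2 difference of 0.01, and 2 had an unadjusted p under 0.05, as did 10.8% of all tested genes. Gnai2, the most abundant subunit of the inhibitory class, stood at 23166 ± 2807 normalized counts at 20 months and 21986 ± 2508 at 3 months (SD, n = 6 each; limma adjusted p = 0.87), and Gnas, the stimulatory alpha subunit, at 14397 ± 1027 and 14776 ± 1271 (limma adjusted p = 0.92). Of 6 receptor kinases and arrestins none passed, 0 had an unadjusted p under 0.05, and all 6 had a log2 difference above 0, with a median of 0.16. Arrb2, an arrestin, stood at 5061 ± 759 and 4452 ± 564 (limma adjusted p = 0.62). Of 19 effector enzymes none passed, 4 had an unadjusted p under 0.05 (21.1%, against 10.8% of all tested genes), and the median was 0.07. Adcy3, an adenylyl cyclase, stood at 568 ± 118 and 755 ± 93.0 (limma adjusted p = 0.11), Plcb3, a phospholipase, at 3422 ± 516 and 2907 ± 216 (0.32), and Itpr2, an inositol trisphosphate receptor, at 5568 ± 290 and 4931 ± 316 (0.26).

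**Figure D3:**
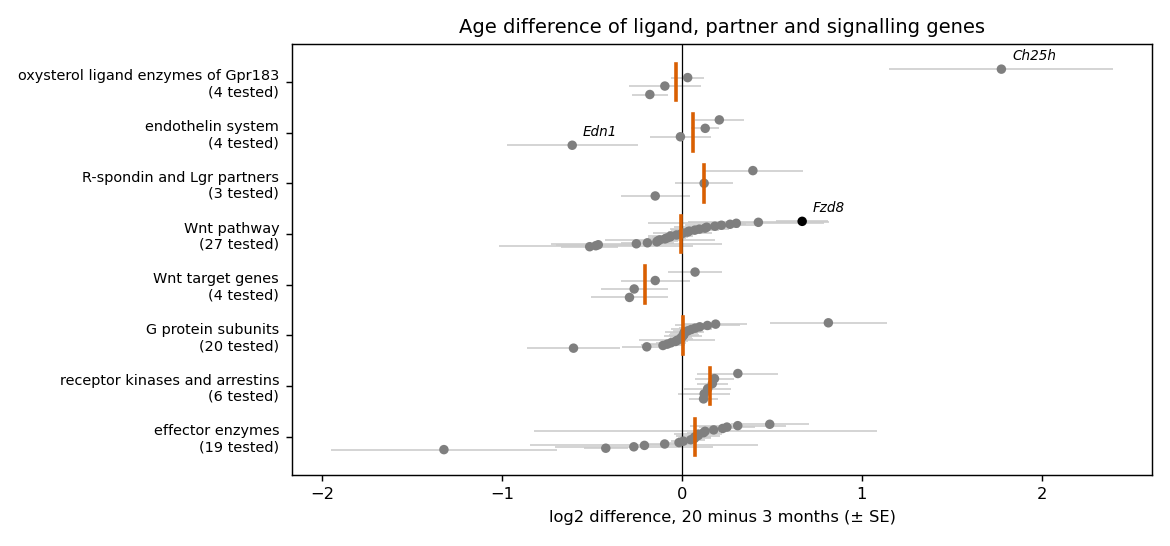
Log2 difference, 20 minus 3 months, with SE (horizontal axis) of each tested gene in 8 lists, 1 grey point per gene, black where the limma adjusted p is under 0.05; orange bars are list medians. The medians lie between -0.21 and 0.16, and Fzd8 is the single black point.

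Of 342 other listed G protein-coupled receptors, 78 were tested. Hcar2 and Fzd8 rose, Lphn2 fell and 75 did not pass, shares of 2 and 1 in 78 beside the 1.27% and 0.458% of all tested genes. Hcar2, a receptor for niacin and the ketone body hydroxybutyrate, ran from 302 to 947 normalized counts at 20 months and from 145 to 250 at 3 months. Its means were 516 ± 246 and 207 ± 49.0 (SD, n = 6 each; fold 2.35; limma adjusted p = 0.013), with no overlap. Lphn2, now named Adgrl2 and an adhesion receptor of the latrophilin family, fell to 1044 ± 125 at 20 months, against 1425 ± 144 at 3 months (limma adjusted p = 0.018), again with no overlap. Its call ended without young 5 or young 6 (limma adjusted p up to 0.056). The median log2 difference of the 78 was -0.05, with 48 below 0 and 30 above, against 0.002 for all tested genes. Of the 78, 22 had an unadjusted limma p under 0.05 (28.2%, against 10.8% of all tested genes).

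Set in order among these 82 receptors, Ednrb had the lowest log2 difference, Lgr4 ranked 3, Gpr165 ranked 5 and Gpr183 ranked 21 from the bottom. The contrast that gives these ranks also chose the 4 receptors, so nothing is read from the ranks. Aplnr, the apelin receptor, named after its values were seen, came between Ednrb and Lgr4 at -1.33, with 11.2 ± 7.23 and 26.1 ± 9.49 normalized counts (limma adjusted p = 0.22). Ackr3, a scavenging chemokine receptor, came between Lgr4 and Gpr165 at -0.83 (35.0 ± 12.8 and 61.5 ± 20.3; limma adjusted p = 0.30). Among those with a mean of at least 50 normalized counts at either age, next were Ccr1, a chemokine receptor (278 ± 63.7 and 450 ± 156; limma adjusted p = 0.11), Cxcr3 (51.3 ± 12.2 and 74.9 ± 19.4; 0.39) and Grm3, a metabotropic glutamate receptor (45.0 to 95.4 and 63.6 to 115; 0.35). Ccr1 passed without aged 5 (limma adjusted p = 0.048). At the other end, P2ry2, a nucleotide receptor, stood at 107 ± 45.4 and 53.0 ± 22.9 (limma adjusted p = 0.085), Ptger4, a prostaglandin receptor, at 79.7 ± 40.2 and 36.4 ± 13.9 (0.22), and Kiss1r, the kisspeptin receptor, at 63.8 ± 16.2 and 38.8 ± 12.1 (0.29). P2ry2 passed without young 1 (limma adjusted p = 0.028), and Ptger4 without aged 5 and 6 (limma adjusted p = 0.017). P2ry13 and Gpr34, abundant receptors of microglia named after their values were seen, had log2 differences near that of Gpr183, at -0.31 and -0.30 (limma adjusted p = 0.058 and 0.068). P2ry13 passed without aged 5, without young 3, without aged 5 and 6, and with robust empirical Bayes. Gpr34 passed without aged 6, without aged 5 and 6, and with limma, edgeR and DESeq2 on the 8 samples with 1 library.

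**Figure D4:**
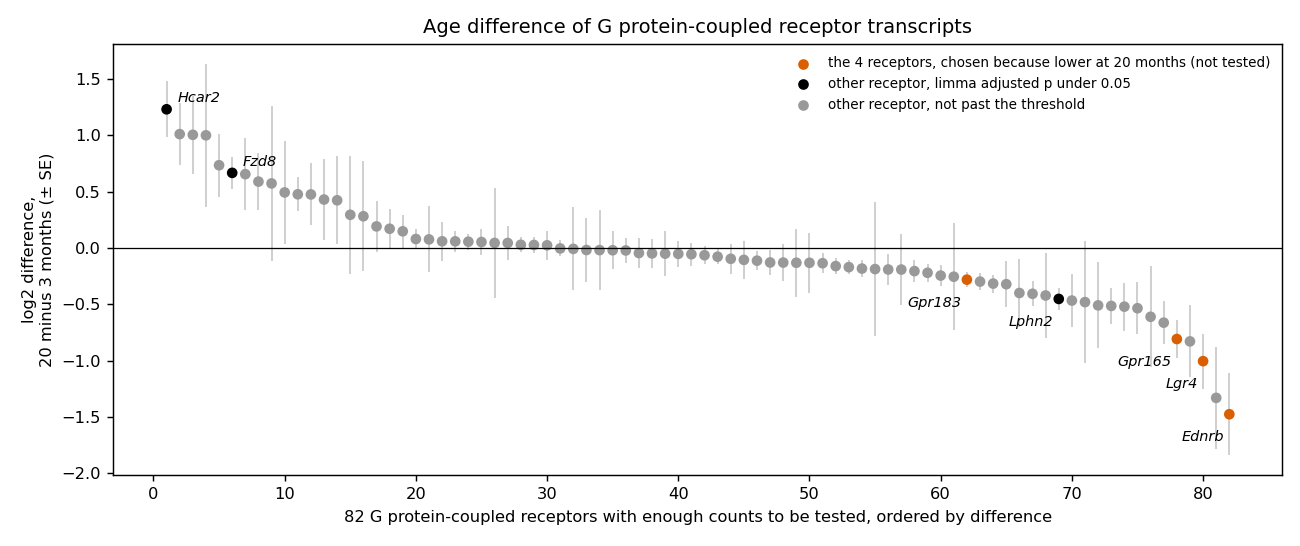
Log2 difference, 20 minus 3 months, with SE (vertical axis) of 82 tested receptors in falling order; orange marks the 4 receptors, which were chosen for being low and are not tested, black the 3 others with a limma adjusted p under 0.05. Ednrb, Lgr4 and Gpr165 lie among the lowest 5 and Gpr183 at -0.28.

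Markers of microglia and of other cells were read beside these values, since in sorted bulk samples fewer cells of a kind and less RNA per cell cannot be told apart. The 12 microglia markers summed to less at 20 months, 71786 ± 2869 CPM against 78218 ± 1811 CPM at 3 months (n = 6 for each age; exact permutation p = 0.0022 in both directions, the smallest possible, adjusted 0.016), with 1 of 12 called. That was Fcrls, a microglial Fc receptor-like gene, which fell (limma adjusted p = 3.8e-04). As the mean log2 value of the list the difference of -0.10 did not pass (exact permutation, adjusted p = 0.13). Its part in the lower receptor levels was not tested.

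Markers of astrocytes and vessels, the known homes of Ednrb in brain, were read next. Ednrb itself was scarce, at means of 33.0 and 79.1 normalized counts, so low marker levels do not tell where its reads came from. The 7 astrocyte markers summed to 214 to 282 CPM at 20 months and 207 to 259 CPM at 3 months (exact permutation p = 0.28, adjusted 0.43). Most of this came from Slc1a3 (6351 ± 723 and 6091 ± 620 normalized counts), while Aqp4 reached at most 10.8 in any sample and Aldh1l1 rose to 57.2 ± 26.5, against 19.4 ± 8.37 at 3 months (limma adjusted p = 0.041). The 9 endothelial markers summed to 49.4 to 81.2 CPM and 56.0 to 74.1 CPM (exact permutation p = 0.75, adjusted 0.82). Pecam1 made up most of this sum (1394 ± 307 and 1512 ± 173 normalized counts). Kdr stood at 307 ± 105 and 275 ± 57.1, and Cdh5 at 38.3 ± 22.8 and 23.3 ± 2.50. Tek and Emcn were at 0 in all samples and Cldn5 at no more than 1.30 normalized counts. The 6 markers of pericytes and smooth muscle summed to 0.32 to 1.22 CPM and 0.69 to 2.37 CPM (exact permutation p = 0.11, adjusted 0.27), with Rgs5 and Kcnj8 at 0. Pdgfrb, the most abundant of them, stood at 19.1 ± 12.5 and 31.0 ± 21.4 normalized counts (limma adjusted p = 0.79). The part of these cells in the lower Ednrb level was not tested.

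Lymphoid and myeloid cells, in which Gpr183 is also known, were read in the same way. The B cell sum was 32.5 ± 2.71 CPM at 20 months and 41.2 ± 3.22 CPM at 3 months (n = 6 for each age; exact permutation p = 0.0022, adjusted 0.016), almost wholly through Cd79b, which fell to 864 ± 72.0 normalized counts, against 1108 ± 85.2 at 3 months (limma adjusted p = 0.038). Pax5 was at 0 in all 12 samples and Cd79a reached at most 19.6. T cell markers summed to no more than 1.44 CPM in any sample, and dendritic cell markers to 5.36 to 9.57 CPM and 5.27 to 7.98 CPM (exact permutation p = 0.80, adjusted 0.82). The monocyte sum was higher at 20 months, 5.66 ± 0.43 CPM against 3.55 ± 1.07 CPM (exact permutation p = 0.0043, adjusted 0.022), a call lost without aged 2, 4, 5 or 6 (adjusted 0.054 each). None of its 4 tested genes passed. Ccr2, which made up most of the sum, stood at 99.4 ± 26.9 and 65.6 ± 19.6 normalized counts (limma adjusted p = 0.39). Border macrophage markers summed to 15.0 ± 7.49 CPM and 11.1 ± 2.34 CPM (SD, n = 6; adjusted 0.43), and choroid plexus markers to 16.1 to 130 CPM and 9.66 to 48.4 CPM (adjusted 0.18). Immediate early genes, a sign of stress during dissociation, summed to 588 ± 76.2 CPM and 566 ± 99.5 CPM (exact permutation p = 0.68, adjusted 0.82). Their part in the lower receptor levels was not tested.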

How the data were processed

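RNA of sorted hippocampal microglia was made into SmartSeq v4 cDNA and Nextera XT libraries and sequenced as read pairs, per the labels' protocols. Per the series' design text, bcl2fastq demultiplexed and fastx_trimmer trimmed the reads, STAR did the alignment, samtools gave the count matrix and DESeq2 the differential expression. The submitters' processing notes name mm10 as the genome build. Tool versions and the gene models used for counting: not given in the sources used here. The deposited signal is 1 table of normalized counts from the authors, with 12 sample columns from 16 libraries, and no source says how the normalization was done. In the 8 columns of samples with 1 library, every positive value (100%) fell within 0.1 of a whole number of reads at 1 step per sample, so whole reads were recovered. In the other 4 columns 100% of values up to 5 lay within 0.0005 of sums of whole multiples of 2 steps, as the mean of 2 separately normalized libraries would.

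The deposited values were not rescaled. Genes entered the test when 10 normalized counts were reached in at least 6 of 12 samples. Ages were compared with limma 3.58.1 (R 4.3.3, trend option, both directions) on log2 values after adding a pseudocount of 1, with Benjamini-Hochberg adjustment over 11579 genes at 0.05. Log2 differences are on this scale, where the pseudocount shrinks the change of low genes. They compare means of log2 values and can exceed the change in mean counts, as for Ednrb. Alternatives were edgeR 4.0.16 and DESeq2 1.42.0 on the recovered reads of 8 samples, other pseudocounts (0.5 and 5), no filter, quantile normalization, robust empirical Bayes, a replicate block, leaving out each sample, and, added after seeing the data, leaving out aged 5 and 6. The fit was tested on simulated data. Sums of markers are CPM of the sample's total, compared by exact permutation over 924 assignments (smallest p 0.0022) with adjustment over 15 lists. Same-numbered samples of the 2 ages did not deviate together.

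Genes named by rule were the 4 receptors, their tested direct partners, every listed gene that passed, the 5 lowest and 5 highest other receptors with a mean of at least 50 normalized counts at the higher age, and the 3 genes most like each receptor. Others (Aplnr, P2ry13, Gpr34 and the examples from the Wnt and signalling lists) were picked after their values were seen. The receptors and gene lists were chosen with earlier results of these data known. Promoter sequences come from RefSeq (GRCm38.p6), where all 4 symbols matched.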

Additional observations from a re-analysis of the deposited data

Results flagged for a closer look

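Groups of 6 samples were looked at for a sample far from the others (Dixon's test at 95%), 106 groups in all over named genes and marker sums. Chance flags about 1 in 20 such groups, and 7 were flagged, none of them a group of the 4 receptors themselves. Ch25h stood at 24.6 normalized counts in young 1, against at most 10.4 in the other young samples. Ccr1 stood at 746 in young 1, against at most 467. Young 1 is the shallowest sample. Ece2 stood at 256 in young 5, against at most 202. Iqgap1 was low in young 4 at 165, against at least 236. P2ry2 stood at 198 in aged 4, against at most 104. The neutrophil marker sum stood at 3.67 CPM in aged 4, against at most 0.74 in the other aged samples, and the oligodendrocyte marker sum at 131 CPM in aged 5, against at most 109.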

How the results depend on the processing

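All 4 receptors kept a lower level at 20 months in 22 alternatives each, a direction fixed by how they were chosen. Of all tested genes 147 rose and 53 fell. On the 8 samples with 1 library limma called 67 and 11, edgeR 76 and 15, DESeq2 184 and 51, and leaving out 1 sample gave 102 to 175 and 27 to 60. With the sample number as a replicate block 30 fell, Lphn2 no longer passed (adjusted p = 0.073) and Gpr34 passed as lower. Same-numbered samples correlated from -0.12 to 0.11 in their deviations, and 2 of 6 aged samples correlated best with their own number, so the numbers were not taken to pair samples. Among the other receptors, 2 rose and 1 fell. On the 8 samples limma gave 0 rises, no longer called Hcar2, Fzd8 or Lphn2, and called only Gpr34 lower. There edgeR gave 1 rise and 2 falls, and DESeq2 gave 3 rises and 2 falls. There were 2 falls with robust empirical Bayes, 4 rises and 3 falls without aged 5 and 6, and 1 to 3 rises and 0 to 4 falls leaving out 1 sample. The Wnt pathway had 0 rises with limma and edgeR on the 8 samples, and 0 to 1 rises and 0 to 1 falls leaving out 1 sample. DESeq2 there called 1 G protein subunit, Gnaz, higher and 1 effector, Adcy3, lower, and effectors had 0 to 1 falls leaving out 1 sample. The 8 samples are fewer, and for other changes the cause was not tested. The microglia, B cell and monocyte sums lost their calls as mean log2 values (-0.10, -0.10 and 0.61) and in a sign-flip test with a replicate block (-6432, -8.74 and 2.11 CPM), whose smallest p of 0.031 left all 3 at an adjusted 0.16. Leaving out 1 sample gave 1.87 to 2.39 CPM for monocytes and 0.62 to 1.33 CPM for oligodendrocyte precursors, which passed in 1 such fit. Read depth limits the precision of Ednrb and Lgr4.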
